A study of Homo sapiens with 22 samples.

Results

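The genes described here are receptors of the neurotrophins and of the glial cell line-derived neurotrophic factor (GDNF) family, with 1 neurotrophin. They are RET, GFRA1, GFRA2, GFRA3, NTRK2, NTRK3, NGFR, SORT1 and BDNF. Each was taken by its exact gene symbol, which gave 9 of the 34679 genes in the table. Of these, 7 were among the 16601 genes that passed a minimum count of 10, and GFRA3 and NTRK2 did not. RNA was sequenced from differentiated LUHMES cells, a human mesencephalic neuronal precursor line that becomes post-mitotic neurons in culture. The question stated with the series is how cell models of Parkinson's disease, made with the toxin 6-hydroxydopamine (6-OHDA) with or without excess alpha-synuclein, differ in their RNA, and what quercetin and rutin do in them.

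The 22 libraries formed 6 groups. Wild-type cells given 6-OHDA had 4 libraries and wild-type untreated cells had 4. Cells overexpressing alpha-synuclein had 3 libraries with 6-OHDA and quercetin, 3 with 6-OHDA and rutin, 4 with 6-OHDA alone and 4 untreated. The sources used here do not state the doses, the times, the vector and promoter of the alpha-synuclein transgene, whether that line is 1 clone, or the vehicle of the untreated cells. The labels do not state that replicates were separate cultures, so the spread behind each p-value is that between libraries and may be technical.

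Receptors of these families work in modules. A GFRA protein, held on the membrane by a lipid anchor, binds a ligand of the GDNF family and presents it to RET, the receptor tyrosine kinase that carries the signal into the cell. GFRA1 prefers GDNF, GFRA2 neurturin and GFRA3 artemin. The kinases TrkB (NTRK2) and TrkC (NTRK3) bind BDNF and neurotrophin-3. The p75 receptor (NGFR) binds all neurotrophins, pairs with Trk kinases in survival signalling, and pairs with sortilin (SORT1) to bind the uncleaved proneurotrophins, a complex known for driving neuronal death. GDNF acting through GFRA1 and RET supports midbrain dopaminergic neurons, the cells lost in Parkinson's disease.

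Of the 7 members that passed the filter, RET, GFRA1 and SORT1 fell with 6-OHDA in both genotypes, so the 250 bases before their start sites are shown, from RefSeq on GRCh38.p14, 5′ to 3′ on the strand of the gene. The windows lie at chr10:43076819-43077068 (plus strand) for RET, chr10:116272476-116272725 (minus strand) for GFRA1 and chr1:109397919-109398168 (minus strand) for SORT1, each being the annotated RefSeq window nearest to the GENCODE gene start. Capitals mark a match to one of the motifs searched, and lower case the rest.
RET: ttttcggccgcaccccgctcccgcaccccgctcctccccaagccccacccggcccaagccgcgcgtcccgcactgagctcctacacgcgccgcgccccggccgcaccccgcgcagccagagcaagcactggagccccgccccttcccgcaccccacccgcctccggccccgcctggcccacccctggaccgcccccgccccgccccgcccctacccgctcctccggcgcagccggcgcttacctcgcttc
GFRA1: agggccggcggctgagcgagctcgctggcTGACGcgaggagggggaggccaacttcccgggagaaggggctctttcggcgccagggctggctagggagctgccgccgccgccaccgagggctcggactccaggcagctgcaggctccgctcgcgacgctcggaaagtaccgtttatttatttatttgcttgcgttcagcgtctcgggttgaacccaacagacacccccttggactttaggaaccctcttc
SORT1: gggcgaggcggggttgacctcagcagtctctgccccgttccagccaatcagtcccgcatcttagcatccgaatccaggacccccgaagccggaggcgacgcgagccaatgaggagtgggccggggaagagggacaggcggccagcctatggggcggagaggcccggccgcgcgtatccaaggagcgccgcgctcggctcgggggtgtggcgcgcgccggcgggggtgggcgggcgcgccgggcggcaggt

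The 6 motifs were searched on both strands. They were the cyclic AMP response element TGACGTCA, its core TGACG, which also lies within the full element, the antioxidant response element TGACNNNGC, the AP-1 site TGANTCA, the NR4A monomer site AAAGGTCA and the C/EBP-ATF composite site TGATGNAA. Only the core was found in these 3 windows, once, in that of GFRA1, starting 221 bases before the start site. Of all 35116 RefSeq promoter windows of this length, 21.2% hold that core, 10.9% the antioxidant response element, 6.57% the AP-1 site, 3.14% the composite site, 1.65% the full cyclic AMP response element and 1.05% the NR4A site. The other windows of the members, 19 in all over 7 genes, held the antioxidant response element in 3 and the core in 2 more, and none of the remaining 4 motifs. These matches are letters in a window and not measured sites of binding.

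The libraries held 1.87 M to 20.67 M estimated counts (M as the SI prefix), and the members took 0.0654% to 0.189% of them. GFRA1 alone gave 216739 of the 246353 counts of the members, or 88%. A count of 3, used as the limit for genes at 0, corresponded to 0.168 to 1.49 CPM (estimated counts per 1 M counts of the library) depending on the library. All 8 neuronal markers were detected in each group, and their summed level was 2690 to 2910 CPM in wild-type cells with 6-OHDA and 7130 to 7800 CPM in wild-type untreated cells. The same sum was 3020 to 4540 CPM in alpha-synuclein cells with 6-OHDA and 6120 to 7750 CPM in those untreated. Its members did not move as 1: with 6-OHDA 6 were lower and 2 higher in wild-type cells, and 4 were lower and 1 higher in alpha-synuclein cells. DCX, MAP2 and STMN2 carried the sum, while ELAVL3 averaged 566 ± 24.4 CPM with 6-OHDA and 323 ± 36.5 CPM untreated, and TUBB3 170.2 ± 18.75 CPM with 6-OHDA and 110.1 ± 16.6 CPM untreated, in wild-type cells (SD, n = 4 each). Of 10 dopaminergic markers, FOXA2, LMX1A and PITX3 had no count in wild-type cells with or without 6-OHDA, while tyrosine hydroxylase (TH) was present at 126 ± 7.72 CPM with 6-OHDA and 374 ± 20.6 CPM without it (SD, n = 4 each). Of the 7 dopaminergic markers tested, 2 were lower in wild-type cells (TH and EN1) and 4 in alpha-synuclein cells, and 1 was higher in both, NR4A2, at 25.1 ± 1.41 CPM with 6-OHDA and 8.29 ± 1.66 CPM untreated in wild-type cells (SD, n = 4 each). Summed glial markers were lower with 6-OHDA as well, at 56.3 to 78.6 CPM against 83.9 to 94.7 CPM in wild-type cells and at 50.1 to 75 CPM against 82.4 to 105 CPM in alpha-synuclein cells. OLIG2 and MBP carried that sum and were lower in both, whereas GFAP and ALDH1L1 were called higher with 6-OHDA in both genotypes, and SOX10 in alpha-synuclein cells. The 4 cycling and progenitor markers in the table summed to 21.9 to 32.8 CPM with 6-OHDA against 47.5 to 68.8 CPM untreated in wild-type cells. Of these, the cycling markers MKI67 and CDK1 were called lower there, at log2 -2.63 and -2.35, and TOP2A was not called. The progenitor marker PAX6 averaged 20.7 ± 4.71 CPM with 6-OHDA and 16.4 ± 2.80 CPM untreated (SD, n = 4 each) and was not called. Sympathetic, immune and vascular markers summed to at most 31.9, 9.98 and 4.97 CPM in any library. With 6-OHDA the 1 sympathetic marker tested, DBH, was called lower in both genotypes. Of the 2 immune markers tested, PTPRC was called higher in both genotypes and CD68 in neither. In wild-type cells PTPRC averaged 4.78 CPM with 6-OHDA and 2.07 CPM untreated. The 2 vascular markers tested were not called. Replicate 4 of the 6-OHDA alpha-synuclein cells stood apart, at -1.47 on the first principal component of all genes, against 35.8 to 45.3 for the other libraries with 6-OHDA and -76.4 to -53.5 for untreated libraries, so results that rest on it are given with and without it. Sequencing lane 1, per the library names, held both untreated groups and the wild-type 6-OHDA group, and lane 2 held the other 3 groups. For 6-OHDA in alpha-synuclein cells, for the genotypes under 6-OHDA and for the interaction, lane and group therefore cannot be told apart.

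Levels were compared between members per kilobase of exon sequence (RPKM). In wild-type cells given 6-OHDA, GFRA1 was highest at 54.9 ± 2.34 RPKM, followed by NGFR at 8.41 ± 0.945, RET at 6.1 ± 0.903, SORT1 at 4.08 ± 0.938, GFRA2 at 2.1 ± 0.606, BDNF at 0.672 ± 0.0619 and NTRK3 at 0.341 ± 0.171 RPKM (SD, n = 4). In wild-type untreated cells the order was GFRA1 at 191 ± 11.4, RET at 18.6 ± 4.12, SORT1 at 12.1 ± 2.64, NGFR at 2.54 ± 0.785, GFRA2 at 2.21 ± 0.561, BDNF at 0.938 ± 0.316 and NTRK3 at 0.522 ± 0.0599 RPKM (SD, n = 4). NGFR thus stood above RET with 6-OHDA and below it without, and in both groups the ranges of RET and NGFR did not overlap. With 6-OHDA the neighbours RET and SORT1, SORT1 and GFRA2, and NTRK3 and GFRA3 overlapped. In untreated cells NGFR and GFRA2, and BDNF and NTRK3, overlapped. NTRK2 and GFRA3 were the lowest members and overlapped, at 0.228 RPKM or less in each library of these groups. These lengths are unions of all annotated exons, 25284 bases for NTRK3 and 20363 bases for NTRK2, so genes with many long isoforms read low on this scale.

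**Figure D1:**
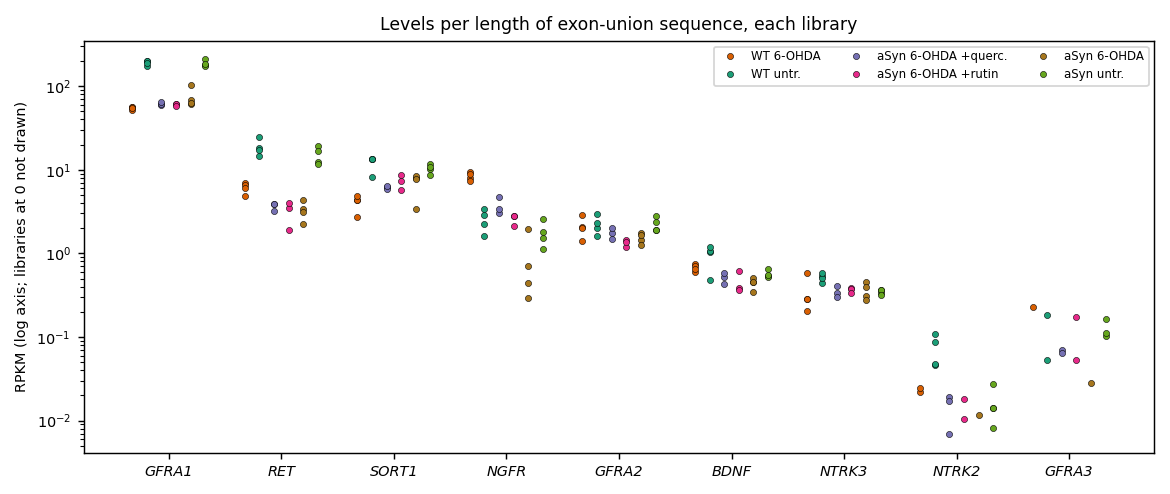
Levels per kilobase of exon-union sequence (RPKM, log axis) of the 9 genes in each library, coloured by group. GFRA1 is the highest member in each group, and the NGFR points of wild-type 6-OHDA cells, at 7.31 to 9.38 RPKM, lie above those of wild-type untreated cells, at 1.62 to 3.42 RPKM.

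RET (chromosome 10, 43077027 to 43130351, plus strand, GRCh38 as for the other genes) fell with 6-OHDA in both genotypes. In wild-type cells it had 44.8, 42.0, 39.1 and 31.3 CPM with 6-OHDA, against 93.9, 157, 117 and 110 CPM untreated. Each library with 6-OHDA was below each untreated one, and the log2 change was -1.57 ± 0.21 (SE; edgeR quasi-likelihood test, Benjamini-Hochberg adjusted p = 1.36e-06). In alpha-synuclein cells RET had 28.1, 14.4, 22.1 and 20.0 CPM with 6-OHDA, against 122.7, 78.9, 109 and 75.3 CPM untreated. Here too the groups did not overlap, with a log2 change of -2.16 ± 0.21 (adjusted p = 3.13e-08), and -2.10 without replicate 4 of the 6-OHDA group. In these bulk samples, fewer cells of a type and less RNA per cell cannot be told apart, and the neuronal marker sum given above was lower in the same libraries, although ELAVL3 and TUBB3 of that list were higher in wild-type cells and TUBB3 in alpha-synuclein cells. Its part in these results was not tested.

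GFRA1 (chromosome 10, 116056925 to 116273467, minus strand), the GDNF-binding partner of RET, fell as well. In wild-type cells it had 538, 487, 529 and 515 CPM with 6-OHDA, against 1859, 1653, 1896 and 1794 CPM untreated. The groups were far apart, with a log2 change of -1.80 ± 0.12 (adjusted p = 8.61e-11). In alpha-synuclein cells GFRA1 had 582, 637, 600 and 985 CPM with 6-OHDA, against 1706, 1964, 1656 and 1730 CPM untreated. The 985 CPM belonged to the library that stood apart, and all 4 values were still below the untreated range. The log2 change was -1.33 ± 0.12 (adjusted p = 8.3e-09) with that library and -1.54 (adjusted p = 2.15e-13) without it.

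GFRA2, the neurturin co-receptor (chromosome 8, 21690403 to 21812357, minus strand), was low throughout. In wild-type cells it had 10.7, 7.26, 14.9 and 10.4 CPM with 6-OHDA, against 10.5, 15.1, 11.8 and 8.22 CPM untreated, and the ranges coincided (log2 change -0.08, adjusted p = 0.766). In alpha-synuclein cells it had 8.97, 7.54, 6.58 and 8.63 CPM with 6-OHDA, against 12.3, 9.71, 9.89 and 14.5 CPM untreated. Those groups did not overlap, and the log2 change was -0.52 ± 0.20 (adjusted p = 0.0372). That call was lost on leaving out any of 4 single libraries: with 6-OHDA, replicate 2 (-0.50, adjusted p = 0.0757) or replicate 3 (-0.44, adjusted p = 0.115), and untreated, replicate 1 (-0.49, adjusted p = 0.071) or replicate 4 (-0.39, adjusted p = 0.139). GFRA3, the artemin co-receptor (chromosome 5, 138252379 to 138274671, minus strand), had 23 counts in all 22 libraries together and none in 11 of them. A count of 0 allows up to 3 counts in a library, for counting error alone.

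**Figure D2:**
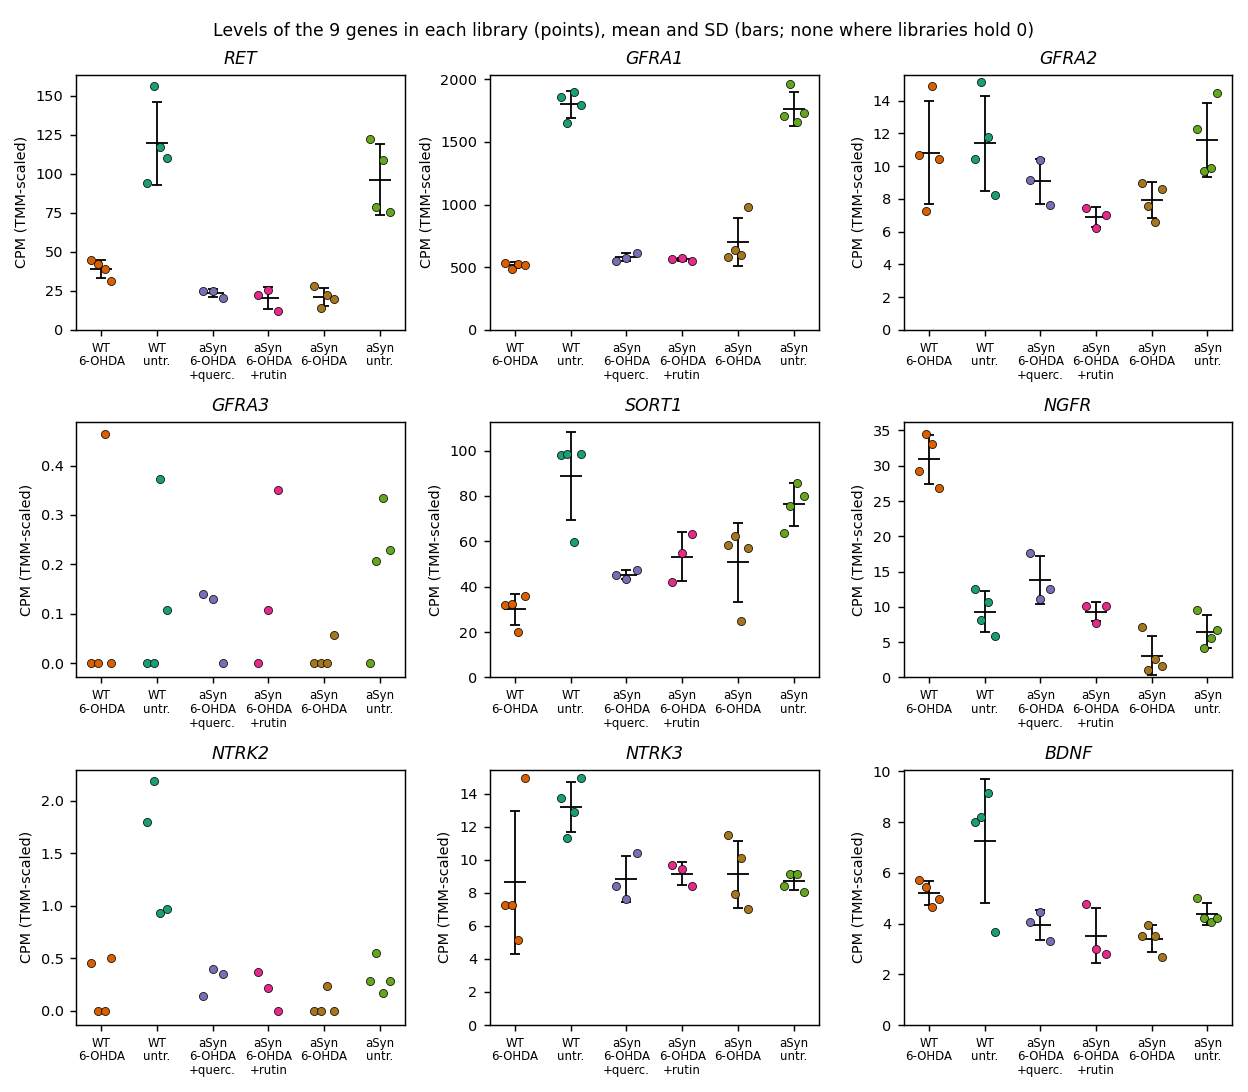
Level in CPM, scaled by TMM, of each of the 9 genes in every library (points) by group, with bars for mean and SD where no library is at 0; each panel has its own axis. RET and GFRA1 are lower in each 6-OHDA library than in each untreated library of the same genotype, and NGFR is at 26.9 to 34.5 CPM in wild-type 6-OHDA cells, above the 5.95 to 12.6 CPM of wild-type untreated cells.

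NGFR (chromosome 17, 49495293 to 49515017, plus strand), which encodes the p75 receptor, was the member whose direction differed between the genotypes. In wild-type cells it had 29.3, 34.5, 33.02 and 26.9 CPM with 6-OHDA, against 12.6, 8.21, 10.6 and 5.95 CPM untreated. It rose in each library beyond the untreated range, by 1.74 ± 0.33 on the log2 scale (adjusted p = 0.000122). In alpha-synuclein cells NGFR had 7.15, 1.08, 2.58 and 1.65 CPM with 6-OHDA, from 43, 3, 11 and 29 counts, against 9.57, 4.2, 5.59 and 6.69 CPM untreated. Of these, 3 values were below the untreated range and 1 was inside it. The log2 change was -1.02 ± 0.38 (adjusted p = 0.0298), a call lost on leaving out any of 5 libraries: 6-OHDA replicate 2 (-0.85, adjusted p = 0.0854), 3 (-0.95, adjusted p = 0.0754) or 4 (-0.63, adjusted p = 0.176), or untreated replicate 1 (-0.82, adjusted p = 0.0888) or 4 (-0.99, adjusted p = 0.0546). Without 6-OHDA replicate 1 the change was -1.83 (adjusted p = 0.000268). Neural crest and Schwann cells carry NGFR in the body, and their markers are not reported here.

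The difference between the genotypes was large. Under 6-OHDA, NGFR averaged 3.11 ± 2.76 CPM in alpha-synuclein cells and 30.9 ± 3.48 CPM in wild-type cells (SD, n = 4 each), a log2 difference of -3.30 ± 0.37 (adjusted p = 1.03e-05). The interaction, that is the response to 6-OHDA in alpha-synuclein cells minus that in wild-type cells, was -2.76 ± 0.50 (adjusted p = 0.000964). It kept its direction and its call in all 16 fits that left out 1 library, with values from -3.55 to -2.38, and was -2.38 without the library that stood apart. In untreated cells NGFR averaged 6.51 ± 2.28 CPM with the transgene and 9.35 ± 2.89 CPM without it (SD, n = 4 each), with overlapping ranges (log2 -0.54, adjusted p = 0.688).

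SORT1 (chromosome 1, 109309568 to 109397951, minus strand), the sortilin partner of p75, fell in both genotypes but less with the transgene. In wild-type cells it had 31.9, 32.4, 20.0 and 35.8 CPM with 6-OHDA, against 97.99, 98.7, 59.6 and 98.7 CPM untreated. Replicate 3 was the lowest of both groups, the groups did not overlap, and the log2 change was -1.55 ± 0.23 (adjusted p = 5.61e-06). In alpha-synuclein cells SORT1 had 58.3, 62.5, 24.9 and 57.2 CPM with 6-OHDA, against 63.7, 75.4, 85.8 and 80.1 CPM untreated. The ranges nearly met, and the log2 change of -0.59 ± 0.21 (adjusted p = 0.0234) lost its call without 6-OHDA replicate 3 (-0.36, adjusted p = 0.0942) or without untreated replicate 3 (-0.52, adjusted p = 0.0653). The interaction was 0.96 ± 0.30 (adjusted p = 0.0268). It missed the threshold without the library that stood apart (0.88, adjusted p = 0.0549), without wild-type untreated replicate 4 (0.90, adjusted p = 0.0554) and without alpha-synuclein untreated replicate 1 (0.89, adjusted p = 0.0558).

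NTRK3 (chromosome 15, 87859751 to 88256768, minus strand), the neurotrophin-3 receptor TrkC, fell in wild-type cells. There it had 7.23, 7.26, 5.12 and 14.9 CPM with 6-OHDA, against 13.7, 11.3, 12.9 and 14.9 CPM untreated. With 6-OHDA 3 libraries were below the untreated range and replicate 4 was at its top, with a log2 change of -0.68 ± 0.22 (adjusted p = 0.0136). Without 6-OHDA replicate 1 the change was -0.59 and no longer called (adjusted p = 0.0663). In alpha-synuclein cells it had 11.5, 7.9, 10.1 and 7.04 CPM with 6-OHDA, against 8.43, 9.16, 9.16 and 8.06 CPM untreated, which overlapped (log2 0.05, adjusted p = 0.852). The interaction of 0.73 ± 0.30 was not called (adjusted p = 0.0882). It was called without the library that stood apart (0.88, adjusted p = 0.0416) and without wild-type 6-OHDA replicate 4 (1.07, adjusted p = 0.00489).

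NTRK2 (chromosome 9, 84668551 to 85027070, plus strand), the BDNF receptor TrkB, gave 80 counts in all and was below the count filter. Wild-type cells had 6, 0, 0 and 1 counts with 6-OHDA, against 11, 12, 5 and 9 counts untreated. Alpha-synuclein cells had 1, 6 and 5 counts with quercetin and 6-OHDA, 3, 2 and 0 with rutin and 6-OHDA, 0, 0, 1 and 0 with 6-OHDA alone, and 2, 8, 3 and 5 untreated. Scaled for depth, the lowest mean was 0.0588 CPM in alpha-synuclein cells with 6-OHDA alone, from 1 count in all. The rutin group averaged 0.194 CPM from 5 counts and the wild-type 6-OHDA group 0.237 CPM from 7. A fit of all 29867 genes with any count called NTRK2 lower with 6-OHDA in wild-type cells (log2 -2.23 ± 0.67, adjusted p = 0.0108) and in alpha-synuclein cells (adjusted p = 0.036), where a single count in the 6-OHDA group leaves no usable fold change. Untreated, NTRK2 averaged 0.323 ± 0.162 CPM in alpha-synuclein cells and 1.47 ± 0.621 CPM in wild-type cells (SD, n = 4 each). In that fit this difference was -2.11 ± 0.55 on the log2 scale and not called (adjusted p = 0.0788).

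BDNF (chromosome 11, 27654893 to 27722058, minus strand), the ligand of TrkB, was the only neurotrophin in the set. In wild-type cells it had 5.72, 5.44, 4.65 and 4.97 CPM with 6-OHDA, against 8.0, 8.21, 9.16 and 3.68 CPM untreated. Untreated replicate 4 was below all 4 treated values and the other 3 above them. The log2 change was -0.43 ± 0.25 (adjusted p = 0.157), and -0.66 (adjusted p = 0.011) without untreated replicate 4. In alpha-synuclein cells BDNF had 3.49, 3.95, 3.52 and 2.67 CPM with 6-OHDA, against 5.0, 4.2, 4.08 and 4.23 CPM untreated. The groups did not overlap but the change of -0.41 ± 0.25 was not called (adjusted p = 0.181), and was -0.26 (adjusted p = 0.456) without the library that stood apart. The use of strand in counting is not stated, so reads of the antisense gene BDNF-AS, which was not analysed here, could be among these counts.

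Counted over the set, 6-OHDA lowered 4 of the 7 tested members in wild-type cells (RET, GFRA1, SORT1 and NTRK3) and raised 1 (NGFR). Over all genes tested, 52% were called, 26.2% lower and 25.8% higher. In alpha-synuclein cells 5 of 7 were lower (RET, GFRA1, GFRA2, NGFR and SORT1) and 0 higher, where 47.1% of all genes were called, 24.2% lower and 22.9% higher. The median log2 change of the 7 was -0.68 in wild-type and -0.59 in alpha-synuclein cells, beside 0.07 and 0.05 over all genes. The choice of scaling mattered for the second count: with upper-quartile in place of TMM scaling, the median of all genes moved by 0.138 in wild-type and 0.125 in alpha-synuclein cells. The share of calls that were higher was then 59.7% in place of 49.5% in wild-type cells and 61% in place of 48.6% in alpha-synuclein cells. Only RET and GFRA1 were then called in alpha-synuclein cells, and NTRK3 was no longer called in wild-type cells (-0.54, adjusted p = 0.0501). Directions of the called members did not turn under any scaling tried, while that of GFRA2 in wild-type cells, not called, was 0.054 with upper-quartile scaling.

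**Figure D3:**
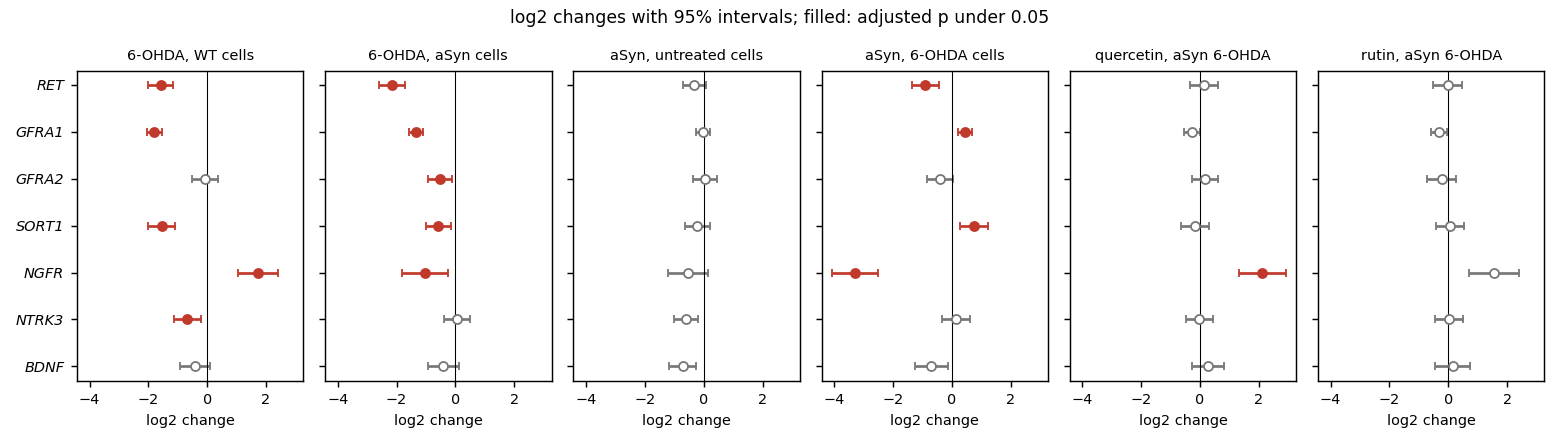
log2 changes (points) with 95% confidence intervals (bars) of the 7 tested genes in 6 comparisons, filled red where the adjusted p is under 0.05. RET, GFRA1 and SORT1 lie left of 0 in both panels on 6-OHDA, while NGFR lies at 1.74 in wild-type cells and at -1.02 in alpha-synuclein cells.

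Between the genotypes in untreated cells, 0 of 7 members were called by edgeR, DESeq2 or limma voom, and 0.651% of all genes were called by edgeR. An unadjusted p under 0.05 in the edgeR fit was found for 2 of the 7, NTRK3 and BDNF, and for 1534 of all 16601 genes. NTRK3 had a log2 difference of -0.61 ± 0.20 (adjusted p = 0.225), with 8.70 ± 0.551 CPM in alpha-synuclein cells and 13.2 ± 1.52 CPM in wild-type cells (SD, n = 4 each) and no overlap. BDNF had one of -0.72 ± 0.23 (adjusted p = 0.205), from 4.38 ± 0.421 CPM in alpha-synuclein cells and 7.26 ± 2.44 CPM in wild-type cells (SD, n = 4 each). Without wild-type untreated replicate 4, BDNF was called at -0.96 (adjusted p = 0.0235). GFRA1 was close in both, at 1764 ± 137 CPM with the transgene and 1800 ± 107 CPM without it (SD, n = 4 each), and the 95% interval of its log2 difference ran from -0.27 to 0.21.

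Under 6-OHDA the genotypes differed in 4 of 7 members, 2 higher and 2 lower in alpha-synuclein cells, where 27.3% of all genes were called, 14.4% higher and 12.9% lower. RET averaged 21.1 ± 5.67 CPM in alpha-synuclein cells and 39.3 ± 5.82 CPM in wild-type cells (SD, n = 4 each), without overlap (log2 -0.90 ± 0.22, adjusted p = 0.00428), and -0.85 (adjusted p = 0.017) without the library that stood apart. NGFR was the other lower member, at -2.92 (adjusted p = 6.66e-05) without that library. GFRA1 averaged 701 ± 190 CPM in alpha-synuclein cells and 517 ± 22.1 CPM in wild-type cells (SD, n = 4 each), with a log2 difference of 0.44 ± 0.12 (adjusted p = 0.00698), which was 0.23 (adjusted p = 0.012) without the library that stood apart. RET and GFRA1, which act in 1 receptor complex, thus differed in opposite directions between the genotypes under 6-OHDA. SORT1 averaged 50.7 ± 17.4 CPM in alpha-synuclein cells and 30.03 ± 6.91 CPM in wild-type cells (SD, n = 4 each), overlapping, with 0.74 ± 0.23 (adjusted p = 0.0186), and 0.67 (adjusted p = 0.0588) without the library that stood apart. The interaction was called for 3 of 7 members, 2 higher and 1 lower, with 21.6% of all genes called, 11.2% higher and 10.5% lower. For GFRA1 it was 0.47 ± 0.16 (adjusted p = 0.0423), and 0.26 (adjusted p = 0.0366) without the library that stood apart. That of GFRA1 missed the threshold in 6 of the other fits that left out 1 library, namely untreated replicate 1, 3 or 4 of wild-type cells (adjusted p = 0.0684, 0.079 and 0.0645) or of alpha-synuclein cells (adjusted p = 0.075, 0.0801 and 0.0677). For RET the interaction was -0.58 ± 0.29 (adjusted p = 0.159). BDNF under 6-OHDA averaged 3.41 ± 0.535 CPM in alpha-synuclein cells and 5.20 ± 0.479 CPM in wild-type cells (SD, n = 4 each). Those groups did not overlap, but the difference of -0.70 ± 0.27 missed the threshold (adjusted p = 0.0573), and was -0.55 (adjusted p = 0.187) without the library that stood apart.

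Quercetin is a plant flavonol and rutin its glycoside, which carries a disaccharide on the same flavonol core. Both were given to alpha-synuclein cells with 6-OHDA, and both comparisons share the same 6-OHDA libraries. With quercetin 1 of 7 members was called, NGFR, which was higher, where 2.53% of all genes were called, 0.56% higher and 1.97% lower. These were 420 genes, and 84 without the library that stood apart. Of those calls 22.1% were higher, against 39% with upper-quartile scaling. NGFR had 17.6, 11.1 and 12.6 CPM with quercetin, against 7.15, 1.08, 2.58 and 1.65 CPM with 6-OHDA alone. No value with quercetin reached down to the 6-OHDA range, and the log2 difference was 2.12 ± 0.38 (adjusted p = 0.0107). It was called in all 7 fits that left out 1 library, at 1.74 (adjusted p = 0.0486) without the library that stood apart, and not in a fit of only the compared groups (2.15, adjusted p = 0.157).

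With rutin NGFR had 10.1, 7.72 and 10.1 CPM, against the same 4 values with 6-OHDA alone, and again the groups did not overlap. The log2 difference of 1.56 ± 0.41 had an unadjusted p = 0.000909 in the edgeR fit and an adjusted p = 0.172, and was not called. Without 6-OHDA replicate 1 it was 2.38 (adjusted p = 0.0139). No member was called with rutin, and of all genes 0% were called by edgeR, with 1790 at an unadjusted p under 0.05, against 288 called by DESeq2 and 0 by limma voom. An unadjusted p under 0.05 was found for 2 of the 7 members, NGFR and GFRA1. GFRA1 had 569, 574 and 552 CPM with rutin, 553, 576 and 614 CPM with quercetin, and 582, 637, 600 and 985 CPM with 6-OHDA alone. Its log2 differences from 6-OHDA alone were -0.31 ± 0.13 with rutin (adjusted p = 0.361) and -0.27 ± 0.13 with quercetin (adjusted p = 0.261), and -0.10 and -0.06 without the library that stood apart.

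Quercetin and rutin were compared directly in the 7 members, at doses that are not given, and none was called, with 0.00602% of all genes called, which is 1 gene. By edgeR, DESeq2 and limma voom 0 members were called, and 0 had an unadjusted p under 0.05. Of all 16601 genes, 1481 had an unadjusted p under 0.05 by edgeR. For NGFR the log2 difference, quercetin minus rutin, was 0.56 with a 95% interval from -0.21 to 1.33 (adjusted p = 0.7), so a difference of either sign is within it. For RET, which had 25.0, 25.2 and 20.8 CPM with quercetin and 22.6, 25.8 and 12.2 CPM with rutin, it was 0.15, from -0.35 to 0.65 (adjusted p = 0.916). For GFRA1 it was 0.04, from -0.24 to 0.32 (adjusted p = 0.973), and for SORT1 it was -0.22, from -0.72 to 0.28 (adjusted p = 0.86). GFRA2 had 9.14, 10.4 and 7.65 CPM with quercetin and 7.45, 6.22 and 7.0 CPM with rutin, without overlap, and a difference of 0.40, from -0.09 to 0.89 (adjusted p = 0.652). NTRK3 and BDNF were at -0.07 and 0.12, with intervals of -0.56 to 0.42 and -0.46 to 0.70. Every RET value with either compound was below the 75.3 to 122.7 CPM of untreated alpha-synuclein cells.

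The ligands of these receptors were looked at next, from a list of 8 genes beside BDNF of which 6 were tested. With 6-OHDA 2 were higher and 0 lower in wild-type cells, and 1 was higher and 2 were lower in alpha-synuclein cells. The 2 higher in wild-type cells, GDF15 and ARTN, held 20 and 22 counts over the 4 untreated libraries. They passed the count filter by their libraries with 6-OHDA, so a call lower was hardly possible for them. The count of ligands called higher is therefore no test of direction. Beside the counts of this list and of those that follow, 25.8% of all genes were higher and 26.2% lower in wild-type cells, and 22.9% higher and 24.2% lower in alpha-synuclein cells. GDF15, a distant relative of GDNF that signals through RET with its own co-receptor, averaged 44.1 ± 7.62 CPM with 6-OHDA and 0.738 ± 0.218 CPM untreated in wild-type cells (SD, n = 4 each; log2 5.84 ± 0.29, adjusted p = 1.39e-12). That untreated mean rests on 20 counts in all, so the size of the change is loosely fixed. The co-receptor, GFRAL, had only 3 to 22 counts per group, at 0.132 to 0.734 CPM as group means. In alpha-synuclein cells GDF15 averaged 32 ± 8.15 CPM with 6-OHDA and 1.52 ± 0.703 CPM untreated (SD, n = 4 each; log2 4.46 ± 0.23, adjusted p = 5.97e-12). NRTN, which encodes neurturin, the ligand of GFRA2, had 13.1, 14.4, 8.46 and 18.2 CPM with 6-OHDA, against 44.3, 32.1, 32.4 and 43.4 CPM untreated, in alpha-synuclein cells. It fell there without overlap (log2 -1.44 ± 0.17, adjusted p = 7.54e-07). In wild-type cells NRTN averaged 26.5 ± 3.54 CPM with 6-OHDA and 32.2 ± 1.76 CPM untreated (SD, n = 4 each; log2 -0.27, adjusted p = 0.201), and the interaction was -1.17 ± 0.25 (adjusted p = 0.00249). Without the library that stood apart these changes of NRTN were -1.67 in alpha-synuclein cells and -1.40 for the interaction, both called. GDNF itself was low, between 1.25 and 2.99 CPM as group means.

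Among 12 further receptors and co-receptors, 9 were tested, and with 6-OHDA 6 were lower in wild-type cells and 6 in alpha-synuclein cells, with 0 higher in both. NCAM1, an alternative GDNF receptor, averaged 732 ± 41.8 CPM with 6-OHDA and 3104 ± 164 CPM untreated in wild-type cells (SD, n = 4 each; log2 -2.08, adjusted p = 3.54e-10). In alpha-synuclein cells its change was -1.57 (adjusted p = 2.63e-08). LINGO1, which forms a complex with p75, changed by -1.47 (adjusted p = 3.41e-09) in wild-type and -1.94 (adjusted p = 1.26e-10) in alpha-synuclein cells.

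**Figure D4:**
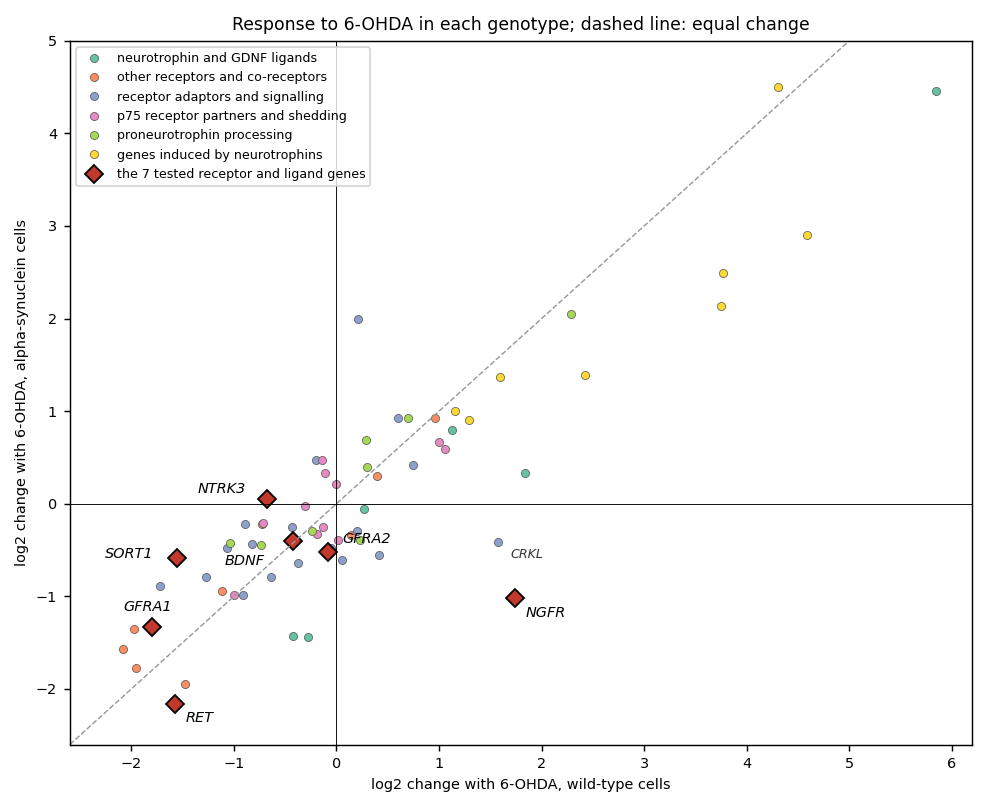
log2 change with 6-OHDA in wild-type cells (x axis) against that in alpha-synuclein cells (y axis) for the 7 tested members (red diamonds) and the genes of 6 related lists (circles, by list), with a dashed line of equal change. NGFR and CRKL, the 1 list gene labelled, lie to the lower right, with positive changes in wild-type and negative ones in alpha-synuclein cells. RET, GFRA1 and SORT1 lie to the lower left. Other list genes lie to the lower right too, among them SH2B2, FURIN, SH2B1 and LRIG1. SH2B2 averaged 45.56 CPM with 6-OHDA and 34.26 CPM untreated in wild-type cells. In alpha-synuclein cells it averaged 24.78 CPM with 6-OHDA and 36.35 CPM untreated. For CRKL the ranges in alpha-synuclein cells overlap, at 14.8 to 28.7 CPM with 6-OHDA and 5.23 to 40.6 CPM untreated, so a fall is not shown.

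Of 20 adaptors and signalling proteins of these receptors 18 were tested. With 6-OHDA 5 were higher and 8 lower in wild-type cells, and 4 were higher and 11 lower in alpha-synuclein cells. KIDINS220, a scaffold of Trk receptors and p75, changed by -1.72 (adjusted p = 1.46e-11) in wild-type cells and -0.89 (adjusted p = 2.28e-07) in alpha-synuclein cells, with an interaction of 0.83 (adjusted p = 0.000696). SH2B2, a Trk adaptor, had the opposite interaction, -0.97 (adjusted p = 0.000664). CRKL, an adaptor named after its values were seen, averaged 20 ± 6.27 CPM in alpha-synuclein cells with 6-OHDA and 68.8 ± 2.04 CPM in wild-type cells with 6-OHDA (SD, n = 4 each), and its interaction was -1.99 ± 0.52 (adjusted p = 0.00893). Without the library that stood apart the interactions of KIDINS220, SH2B2 and CRKL were 0.68, -0.91 and -1.83 and stayed called. With quercetin 2 of the 18 were lower, PLCG1, the phospholipase that Trk and RET activate (-0.29, adjusted p = 0.0259), and SHC2 (-0.49, adjusted p = 0.0261), and with rutin 0 were called. Neither PLCG1 nor SHC2 was called without the library that stood apart (PLCG1 -0.23, adjusted p = 0.0513, and SHC2 -0.41, adjusted p = 0.107). Of all genes, 1.97% were lower and 0.56% higher with quercetin, and 0% were called with rutin.

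For p75, 11 partners and shedding proteases were tested of 12 listed. With 6-OHDA 2 were higher and 3 lower in wild-type cells, and 3 were higher and 5 lower in alpha-synuclein cells. BEX3, a p75 death-domain partner, changed by -1.0 (adjusted p = 1.27e-06) in wild-type and -0.99 (adjusted p = 1.54e-06) in alpha-synuclein cells. ADAM17, the protease that sheds p75, changed by 0.47 (adjusted p = 0.000286) in alpha-synuclein cells, and its interaction was 0.61 (adjusted p = 0.00339). Of 9 genes of proneurotrophin processing 8 were tested, with 1 higher and 3 lower in wild-type cells and 3 higher and 3 lower in alpha-synuclein cells. The convertase PCSK5 rose in both, by 2.28 (adjusted p = 2.31e-05) and 2.05 (adjusted p = 8.01e-05) on the log2 scale. FURIN, the convertase that cleaves proneurotrophins, averaged 47.3 ± 4.55 CPM in alpha-synuclein cells and 64.9 ± 6.1 CPM in wild-type cells under 6-OHDA (SD, n = 4 each; log2 -0.45, adjusted p = 0.00195), and its difference was -0.53 (adjusted p = 0.000885) without the library that stood apart.

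Of 10 listed genes known to be induced by neurotrophins, 9 were in the table and 8 were tested. With 6-OHDA 8 of the 8 were higher in wild-type cells and 7 in alpha-synuclein cells, with 0 lower, beside 25.8% and 22.9% of all genes called higher, and their medians were 3.09 and 1.76 on the log2 scale. Wild-type untreated cells held, over 4 libraries, 2 counts of NPAS4, 6 of NPTX2, 8 of EGR2, 19 of ARC and 27 of FOS. Such genes passed the count filter by their libraries with 6-OHDA, so a call lower was hardly possible for them. The counts and medians of this list are therefore no test of its direction. FOS, an immediate early gene, averaged 20.9 ± 2.84 CPM with 6-OHDA and 1.01 ± 0.379 CPM untreated in wild-type cells (SD, n = 4 each; log2 4.30, adjusted p = 1.5e-09). CREM rose by 1.60 in wild-type cells (adjusted p = 1.56e-10) and by 1.37 in alpha-synuclein cells (adjusted p = 1.05e-09). It was the 1 gene of this list that was higher with quercetin than with 6-OHDA alone (0.40, adjusted p = 0.0454), beside 0.56% of all genes. That call was lost without the library that stood apart (0.30, adjusted p = 0.172). VGF, a secreted neuropeptide precursor induced by BDNF and nerve growth factor, averaged 20.2 ± 6.4 CPM in alpha-synuclein cells and 35.4 ± 6.66 CPM in wild-type cells under 6-OHDA (SD, n = 4 each; log2 -0.84, adjusted p = 0.0189), and was not called without the library that stood apart (-0.58, adjusted p = 0.0816). In untreated cells 0 genes of the 6 lists were called between the genotypes, beside 0.651% of all genes.

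The genes whose levels followed each member most closely were sought among 12456 genes over the 22 libraries, by Pearson's r of log2 CPM. These libraries share the split between untreated cells and cells with 6-OHDA, and r was not computed within groups. GFRA1 went with DCLK1 (r = 0.996), ADGRL3 (r = 0.995) and RGMB (r = 0.995). RET went with ARHGEF4 (r = 0.975), CDH22 (r = 0.972) and KIF26A (r = 0.971), and with its co-receptor GFRA1 at r = 0.839. For NGFR the leading genes were IER2 (r = 0.871), PHETA1 (r = 0.862) and AMIGO3 (r = 0.857). SORT1 went with NOL11 (r = 0.905) and BDNF with SHANK1 (r = 0.848). For GFRA2 and NTRK3 the highest values were 0.804 with VPS11 and 0.797 with SLC7A6. Between NGFR and GFRA1 r was -0.309, and between NGFR and RET 0.135.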

How the data were processed

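Per the labels' protocols, an InnuPREP kit was used for extraction and an MGIEasy kit for libraries of polyadenylated RNA. The authors deposited estimated counts per Ensembl gene, in whole numbers and not normalised, for 22 libraries. The submitters' processing notes name Trimmomatic 0.38, kallisto 0.46.2, GRCh38 and hg38, without role or order. The sources used here do not state the annotation, the summing to genes, any read filter or the use of strand. Reads shared between similar transcripts are divided by such estimates.

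From these values edgeR 4.0.16 (R 4.3.3) fitted all 22 libraries by group with TMM scaling and quasi-likelihood tests. Genes passed edgeR's filter at a minimum count of 10, and p-values were adjusted by Benjamini-Hochberg over 16601 genes, with calls under 0.05. An SE is the size of the log2 change divided by the square root of F. CPM used TMM-scaled library sizes, and RPKM the exon-union length in GENCODE 29. Correlations used a prior count of 2 and genes with a mean of at least 5 CPM in some group. The fit was tested on simulated data, for each comparison but the interaction. It recovered 26.9% to 35.8% of 1.5-fold changes, 53.7% to 71.6% of 2-fold changes and 74.2% to 93.9% of 4-fold changes. A gene that was not called may therefore still differ. Depth ran from 1.87 M to 20.67 M counts. Counts of replicates differed beyond sampling noise (chi-square per degree of freedom 2.5 to 24.1), so none was merged. Replicates 3 and 4 of the untreated alpha-synuclein cells each carry 4 barcode numbers in their labels.

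Alternatives were other scalings and filters, DESeq2 1.42.0, limma 3.58.1 (voom), the replicate number as a block, only the compared groups, and leaving out libraries. The members and gene lists were chosen with earlier results of these data known. Named genes were the 9 members, TH, for each list the 2 called genes with the smallest adjusted p in each comparison, and the 3 genes most correlated with each tested member. Some values that these rules call for are not reported here. Other named genes were chosen after their values were seen. EGR1, NGFRAP1 (an older symbol of BEX3) and 3 of 7 cycling and progenitor markers did not match the table and were not analysed here. Promoter windows came from RefSeq (GRCh38.p14), found for 7 of 8 members looked up, and NGFR had none.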

Additional observations from a re-analysis of the deposited data

Results flagged for a closer look

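Single libraries lay far from the others of their group in 7 cases, by a test that flags about 1 in 20 groups by chance. The quercetin and rutin groups, with 3 libraries each, were not tested in this way. GFRA1 was at 985 CPM in replicate 4 of the 6-OHDA alpha-synuclein cells, the library that stood apart over all genes, with the other 3 at 582 to 637 CPM. SORT1 was at 24.9 CPM in replicate 3 of that group, with the other 3 at 57.2 to 62.5 CPM, and at 59.6 CPM in replicate 3 of the wild-type untreated cells, with the other 3 at 97.99 to 98.7 CPM. BDNF was at 5.0 CPM in replicate 1 of the untreated alpha-synuclein cells, with the other 3 at 4.08 to 4.23 CPM. In 3 further cases the other 3 libraries held no count: GFRA3 at 0.465 CPM in replicate 3 of the wild-type 6-OHDA cells and at 0.0568 CPM in replicate 4 of the 6-OHDA alpha-synuclein cells, and NTRK2 at 0.235 CPM in replicate 3 of those same alpha-synuclein cells. Each of these 3 rests on 1 count. With all other libraries of a group at 0 the test always flags it, so the rate above does not hold for these 3.

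The response to 6-OHDA differed between the genotypes in 3 members by the interaction test: NGFR at -2.76 (adjusted p = 0.000964), SORT1 at 0.96 (adjusted p = 0.0268) and GFRA1 at 0.47 (adjusted p = 0.0423), all on the log2 scale as alpha-synuclein minus wild-type cells. Lane and group cannot be told apart for these 3 values.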

How the results depend on the processing

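Of 945 refits of member log2 changes, 861 kept direction and side of the threshold, 38 lost a call, 8 gained one and 38 changed sign, none of them called before or after. Most of these values were not called at first, so they had no call to lose. With 6-OHDA in alpha-synuclein cells, calls were lost in 9 of 17 refits of GFRA2, 8 of 17 of NGFR and 5 of 17 of SORT1. The call on the GFRA1 interaction was lost in 8 of 25 refits. The members called with 6-OHDA in alpha-synuclein cells were 5, and 2 with upper-quartile scaling, with only the compared groups or without the libraries with 4 barcode numbers. With quercetin 1 member was called, and 0 with only the compared groups. Leaving out 1 library gave 2 to 5 members with 6-OHDA in alpha-synuclein cells, 4 to 6 in wild-type cells, 0 to 1 for the genotypes untreated, 3 to 4 under 6-OHDA, 1 to 4 for the interaction, 1 with quercetin (1 to 1), 0 to 1 with rutin and 0 for quercetin against rutin. Over all genes the same fits gave 6714 to 8520 calls with 6-OHDA in alpha-synuclein cells and 7679 to 8392 in wild-type cells. They gave 3732 to 4367 calls for the genotypes under 6-OHDA and 2861 to 4298 for the interaction.

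Over all genes, the genotypes untreated gave 108 calls, against 219 with DESeq2, 182 with limma voom, 23 with only the compared groups and 11 without the libraries with 4 barcode numbers. The interaction gave 3594, against 1978 without those libraries. Quercetin gave 420, against 953 with DESeq2, 857 with limma voom, 120 with the replicate block and 2 with only the compared groups. Rutin gave 0, against 2 with RLE scaling, 4 with no low-count filter, 6 at a minimum count of 30 and 288 with DESeq2. Quercetin against rutin gave 0 higher and 1 lower, against 25 and 5 with upper-quartile scaling, 4 and 4 with no filter, 4 and 3 at a minimum count of 30, 70 and 32 with DESeq2, 1 higher and 1 lower with limma voom, and 12 and 7 with only the compared groups. Leaving out 1 library gave 33 to 239 calls for the genotypes untreated (33 without alpha-synuclein untreated replicate 4, 239 without its replicate 2), 26 to 896 for quercetin (26 without quercetin replicate 2, 896 without 6-OHDA alpha-synuclein replicate 1), 0 to 143 for rutin (143 without that same library), and 0 higher and 0 to 1 lower for quercetin against rutin. For quercetin the count was also 84 without 6-OHDA alpha-synuclein replicate 4, 727 without its replicate 3, and 98 and 73 without quercetin replicates 1 and 3. For the genotypes untreated it was 61, 47 and 66 without wild-type untreated replicates 1, 3 and 4, and for rutin 41 without 6-OHDA alpha-synuclein replicate 3. The refits of list genes without 6-OHDA alpha-synuclein replicate 4 were chosen after seeing the data. The cause of these shifts was not tested.

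Same-numbered libraries did not deviate together (r from -0.138 to 0.0633), so no pairing by number was seen. A weak r cannot exclude pairing, because it also carries the noise of each library. With the replicate block, GFRA2 with 6-OHDA in alpha-synuclein cells (-0.53, adjusted p = 0.0521) and the GFRA1 interaction (0.45, adjusted p = 0.0538) missed the threshold, and no other call on a member changed. Depth limits GFRA3 and NTRK2, where a few counts decide each value.

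The sign changes were in values near 0. With upper-quartile scaling the log2 change of GFRA2 with 6-OHDA in wild-type cells was 0.054, NTRK3 with quercetin 0.024 and RET with rutin 0.011. With limma voom NTRK3 with 6-OHDA in alpha-synuclein cells was -0.028, the BDNF interaction -0.20, NTRK3 with quercetin 0.039 and RET with rutin 0.016. With the replicate block NTRK3 with quercetin was 0.0054 and BDNF with rutin -0.027. Without the libraries with 4 barcode numbers, GFRA1 and GFRA2 between untreated genotypes were 0.028 and -0.049, and the BDNF interaction -0.046. Leaving out 1 library gave, on the log2 scale, -0.26 to 0.080 for GFRA2 with 6-OHDA in wild-type cells and -0.072 to 0.20 for NTRK3 in alpha-synuclein cells. Between untreated genotypes it gave -0.085 to 0.00037 for GFRA1 and -0.10 to 0.20 for GFRA2, and for the BDNF interaction -0.12 to 0.26. With quercetin NTRK3 spanned -0.18 to 0.11. With rutin NTRK3 spanned -0.11 to 0.17, RET -0.21 to 0.17, SORT1 -0.17 to 0.20 and BDNF -0.16 to 0.30. For quercetin against rutin NTRK3 spanned -0.21 to 0.040, GFRA1 -0.0056 to 0.074, RET -0.033 to 0.34 and BDNF -0.035 to 0.43.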
